A study of Mus musculus with 10 samples.

Results

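The opioid system was followed through 6 genes, 3 that code for receptors (Oprm1, Oprd1 and Oprk1) and 3 that code for peptide precursors (Penk, Pdyn and Pomc), in peak lists of open chromatin from the ventral tegmental area of the mouse. The genes were chosen by name, and a peak was counted for a gene when it overlapped the gene or the 20 kb on either side of it in the build mm39. Of the 6 genes, 5 could be placed. Pomc was not analysed here, because no mm39 position of it was at hand. The 5 windows spanned 550.3 kb and held 34 peaks over 10 libraries. These peaks merged into 21 regions, of 74593 regions in the whole series.

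Opioid receptors couple to inhibitory G proteins, which lower cyclic AMP, open inwardly rectifying potassium channels and reduce transmitter release. In the ventral tegmental area, a midbrain region with dopamine neurons, mu receptors are known for silencing GABA neurons that hold dopamine neurons in check, whereas kappa receptors act on dopamine neurons directly and lower their activity. Penk codes for the enkephalins, which act at delta and mu receptors, Pdyn for the dynorphins, which act at kappa receptors, and Pomc for beta-endorphin among other peptides.

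Chromatin was profiled by ATAC-seq, in which the Tn5 transposase cuts open chromatin and leaves sequencing adapters there. All mice were adults older than postnatal day 60 of the genotype ArcCreERT2 x Sun1/+, so every library, the controls included, carried a Cre recombinase inducible by tamoxifen and driven by the activity-dependent gene Arc, and a tag on the nuclear envelope (Sun1-myc-sfGFP). Nuclei with the tag were taken out of the whole by magnetic immunoprecipitation. The groups were activated nuclei of mice exposed to early life stress (n = 3, 2 males and 1 female), activated nuclei of standard-reared mice (n = 2, 1 male and 1 female), non-activated nuclei of stressed mice (n = 3, 2 males and 1 female) and non-activated nuclei of standard-reared mice (n = 2, both female). Each library came from a single animal, and 4 of the 6 animals gave a library to both classes. Because the Arc driver is active in many neurons, the activated class is not one cell type, and marker genes of dopamine neurons, GABA neurons and glia were not placed in mm39, so the labelled tissue was not checked here. In bulk nuclei, fewer cells with open chromatin at a gene and less open chromatin per cell cannot be told apart.

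The lists differed widely in length and depth, which touches every count that follows. They held 15128 to 39783 peaks in activated and 7076 to 50786 in non-activated libraries. The depth, as fragments per kb of background, was 5.30 to 10.9 in activated libraries. Among non-activated libraries, replicate 1 of the stressed mice had 6.52 and the other 4 had 0.309 to 1.45. The fragment length, taken as the shortest peak of a list, split the libraries in the same way. It was 134 to 161 bp in activated libraries, 150 in stressed non-activated replicate 1 and 210 to 250 in the other 4. The longest lists were those of standard-reared activated replicate 1 and stressed non-activated replicate 1, and results are given with and without these libraries.

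Sequences at the start of the genes are shown for Oprm1, Oprd1 and Pdyn, since each has a region near a start that 2 or more libraries shared. They are RefSeq promoter windows of GRCm38.p6, from 250 bases before to 50 after a start, and no position in that build can be set beside the mm39 positions of the peaks. Oprm1 has an outermost start (chr10:6758343-6758642, plus strand) and another 29.98 kb downstream (chr10:6788320-6788619, plus strand), and both are shown because only the downstream one had a region near it. Oprd1 (chr4:132144437-132144736, minus strand) is shown for its base composition, and Pdyn (chr2:129699889-129700188, minus strand) as the only placed peptide gene with a matched window. Capitals mark the motifs found on either strand among 6 that were searched. These were the cyclic AMP response element TGACGTCA, its half-site TGACG, which lies within it and so overlaps, the motif TGAGTCA of AP-1, the E-box CACGTG, the GC box GGGCGG and the element TATAAA found upstream of many starts.
Oprm1 outermost start: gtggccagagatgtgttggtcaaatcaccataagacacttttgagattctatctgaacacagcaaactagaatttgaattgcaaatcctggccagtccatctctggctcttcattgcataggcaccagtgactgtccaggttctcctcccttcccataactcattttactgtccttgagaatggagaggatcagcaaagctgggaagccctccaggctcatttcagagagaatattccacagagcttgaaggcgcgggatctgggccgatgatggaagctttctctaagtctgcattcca
Oprm1 downstream start: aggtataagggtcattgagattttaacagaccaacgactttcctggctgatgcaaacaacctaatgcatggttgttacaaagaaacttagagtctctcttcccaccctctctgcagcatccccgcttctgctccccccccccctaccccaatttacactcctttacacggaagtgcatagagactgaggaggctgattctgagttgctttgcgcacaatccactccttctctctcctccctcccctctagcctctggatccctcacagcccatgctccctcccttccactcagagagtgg
Oprd1 start: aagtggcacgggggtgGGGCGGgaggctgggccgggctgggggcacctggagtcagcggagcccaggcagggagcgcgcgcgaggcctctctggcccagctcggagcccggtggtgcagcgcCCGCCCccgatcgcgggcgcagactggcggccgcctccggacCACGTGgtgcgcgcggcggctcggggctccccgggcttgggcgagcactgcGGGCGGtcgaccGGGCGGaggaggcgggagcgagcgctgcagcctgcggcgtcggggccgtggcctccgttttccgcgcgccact
Pdyn outermost start: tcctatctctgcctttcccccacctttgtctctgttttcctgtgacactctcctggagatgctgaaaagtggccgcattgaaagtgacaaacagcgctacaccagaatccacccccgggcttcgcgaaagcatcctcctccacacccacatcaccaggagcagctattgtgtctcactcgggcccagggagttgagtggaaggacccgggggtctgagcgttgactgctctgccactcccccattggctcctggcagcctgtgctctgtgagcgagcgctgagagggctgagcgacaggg

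The Oprd1 window was rich in G and C, at 79.3%, which put it at percentile 98.8 of 32817 promoter windows of the mouse. It held 43 CpG dinucleotides, 4 GC boxes and 1 E-box. The downstream Oprm1 window had 52.0% G and C and 4 CpG, and the outermost Pdyn window 59.0% and 11, against a median of 52.7% over all windows. The window of the other Pdyn start, 1.28 kb downstream and not shown, had 44.3% and 5 CpG. Neither Oprm1 window nor either Pdyn window contained any of the 6 motifs. Over all promoter windows, 35.6% held a GC box, 7.15% an E-box, 20.8% the half-site, 1.79% the full element, 5.21% the AP-1 motif and 13.6% the element TATAAA. These matches describe letters only.

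Each of the 5 genes had 1 region near a start that was found in 2 or more libraries, and these 5 regions held 17 of the 34 peaks. A region was taken as a start region when its centre lay within 5 kb of a start and 2 or more libraries had it, since the placement of the genes is known only to 10 kb. Penk had another region with its centre 4.13 kb from its start, called in 1 library only. The Oprk1 region was found in 5 libraries, that of Oprd1 in 4, that of Oprm1 in 3, and those of Penk and Pdyn in 2 each. All 5 start regions had a peak in both of the longest lists. The other 8 libraries gave 6 peaks at the 3 receptor starts and 0 at the 2 peptide starts, a count with no test behind it. The order of the genes depended on the threshold. At a -log10 q of at least 5, Oprm1 had a peak in 3 libraries, Oprk1 in 2 and Oprd1 in 1, Penk in 2 and Pdyn in 1.

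**Figure D1:**
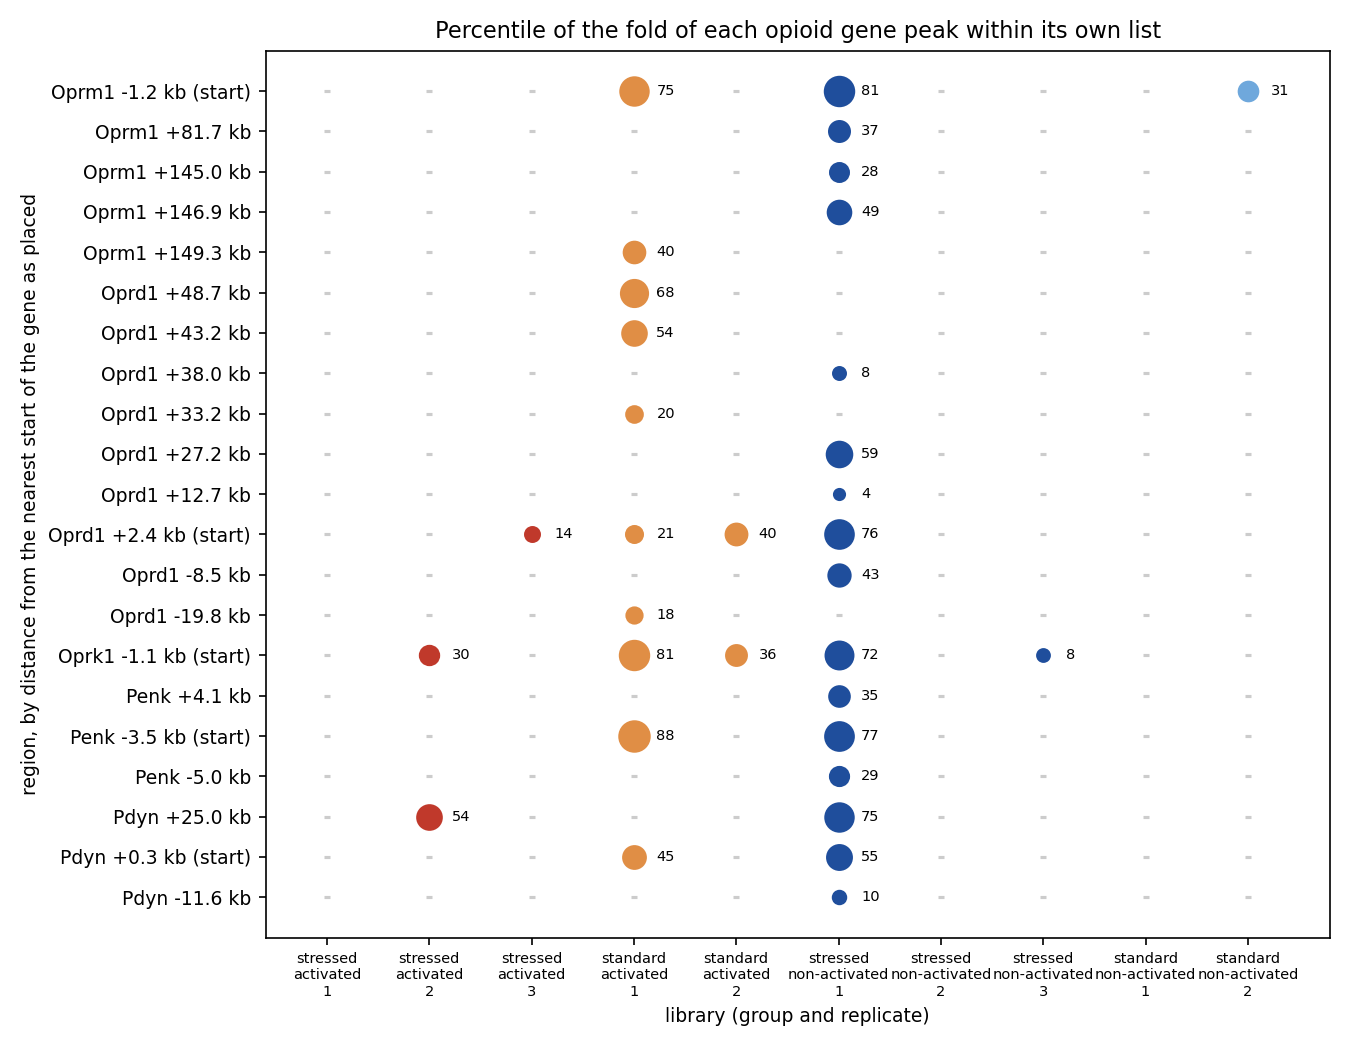
Percentile of the fold of each peak within its own list (number and dot size) for the 21 regions (rows, by gene and distance from the nearest start in kb) in the 10 libraries (columns, by group and replicate). Grey dashes are libraries with no peak in the region. Most dots stand in the columns of standard-reared activated replicate 1 (11 peaks) and stressed non-activated replicate 1 (16 peaks).

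Oprk1 codes for the kappa receptor, the target of dynorphin. It had the most widely shared region (chromosome 1, 5658474 to 5659336), at -1.09 kb from the placed start (minus is upstream), and no other peak in its window. The fold of a peak, which is the authors' ratio of fragments at the summit to background with 1 added to both, was 4.28 in stressed activated replicate 2. In standard-reared activated replicates 1 and 2 the highest fold was 6.05 and 4.99. Of the non-activated libraries, stressed replicates 1 and 3 had 8.44 and 3.72, while neither standard-reared library had a peak. Within the lists these stood at percentile 29.8 in stressed activated replicate 2, 80.9 and 36.2 in standard-reared activated replicates 1 and 2, and 72.1 and 7.86 in stressed non-activated replicates 1 and 3. The highest values thus came from the 2 longest lists, and both classes had libraries with and without a peak. Fragments at the summit numbered 8 in stressed activated replicate 2, 15 and 8 in the standard-reared activated libraries, and 23 and 3 in stressed non-activated replicates 1 and 3. The last rested on 3 fragments over a background of 0.0744. In standard-reared activated replicate 1 the region held 2 separate peaks, and that of replicate 2 overlapped only the downstream one, while that of stressed activated replicate 2 overlapped only the upstream one.

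Oprd1 codes for the delta receptor, which binds enkephalins. Its start region (chromosome 4, 131871572 to 131872178) lay 2.42 kb inside the placed gene and was found in stressed activated replicate 3, both standard-reared activated libraries and stressed non-activated replicate 1. The fold was 3.88 in stressed activated replicate 3 and 3.39 and 5.18 in standard-reared activated replicates 1 and 2. It was 9.20 in stressed non-activated replicate 1, the only non-activated library with a peak. That library had 30 fragments at the summit and percentile 76.3, whereas the activated libraries had 8 to 13 fragments and percentiles of 14.1 to 40.4. The 3 activated peaks were 176 to 188 bp wide and that of stressed non-activated replicate 1 was 607 bp. Each of the 3 fell within the wide one.

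Oprd1 also had 8 further regions, more than any other of the 5 genes, each seen in a single library. Of these, 4 came from standard-reared activated replicate 1 and 4 from stressed non-activated replicate 1, and none was shared between them. The strongest by percentile was at 67.7 in standard-reared activated replicate 1 (chromosome 4, 131825491 to 131825642), in the flank outside the placed gene. The next stood at 58.9 in stressed non-activated replicate 1 (131846949 to 131847302), inside the placed gene. Others of the 8 lay in the flanks too. The Oprd1 window, flanks included, thus had 16.2 peaks per 100 kb, against 6.18 over the 5 windows.

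Oprm1 codes for the mu receptor, the main target of morphine. Its gene is by far the longest of the 5, and its window of 319.6 kb had 2.19 peaks per 100 kb, the lowest density of the 5. The region found in 3 libraries (chromosome 10, 6738480 to 6739109) lay 28.8 kb from the outermost start and at -1.18 kb from the downstream one. No library had a peak within 5 kb of the outermost start. The fold was 5.30 in standard-reared activated replicate 1, 10.3 in stressed non-activated replicate 1 and 5.59 for replicate 2 of the standard-reared non-activated nuclei. The stressed activated libraries had no peak there in any of 3. In percentiles these peaks were at 75.1 in standard-reared activated replicate 1, 81.2 in stressed non-activated replicate 1 and 31.0 for replicate 2 of the standard-reared non-activated nuclei, with 13, 21 and 6 fragments at the summit. The value of 10.3 was the highest fold of all 34 peaks. It was the only start region called in a standard-reared non-activated library.

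Farther inside Oprm1, 4 regions were each called in 1 library. The peaks of stressed non-activated replicate 1 lay 111.7, 175.0 and 176.9 kb from the outermost start, and that of standard-reared activated replicate 1 at 179.3 kb. The last 3 fell within 4.54 kb of one another without overlapping, at percentiles of 28.3 to 48.8. In the GRCm38.p6 gene table Ipcef1 overlaps Oprm1, so peaks inside the gene may lie in both genes. No other of the placed genes overlapped a protein-coding gene there. The flanks were not checked for other genes, and the start regions of Oprk1 and Penk are among those that lie in them.

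**Figure D2:**
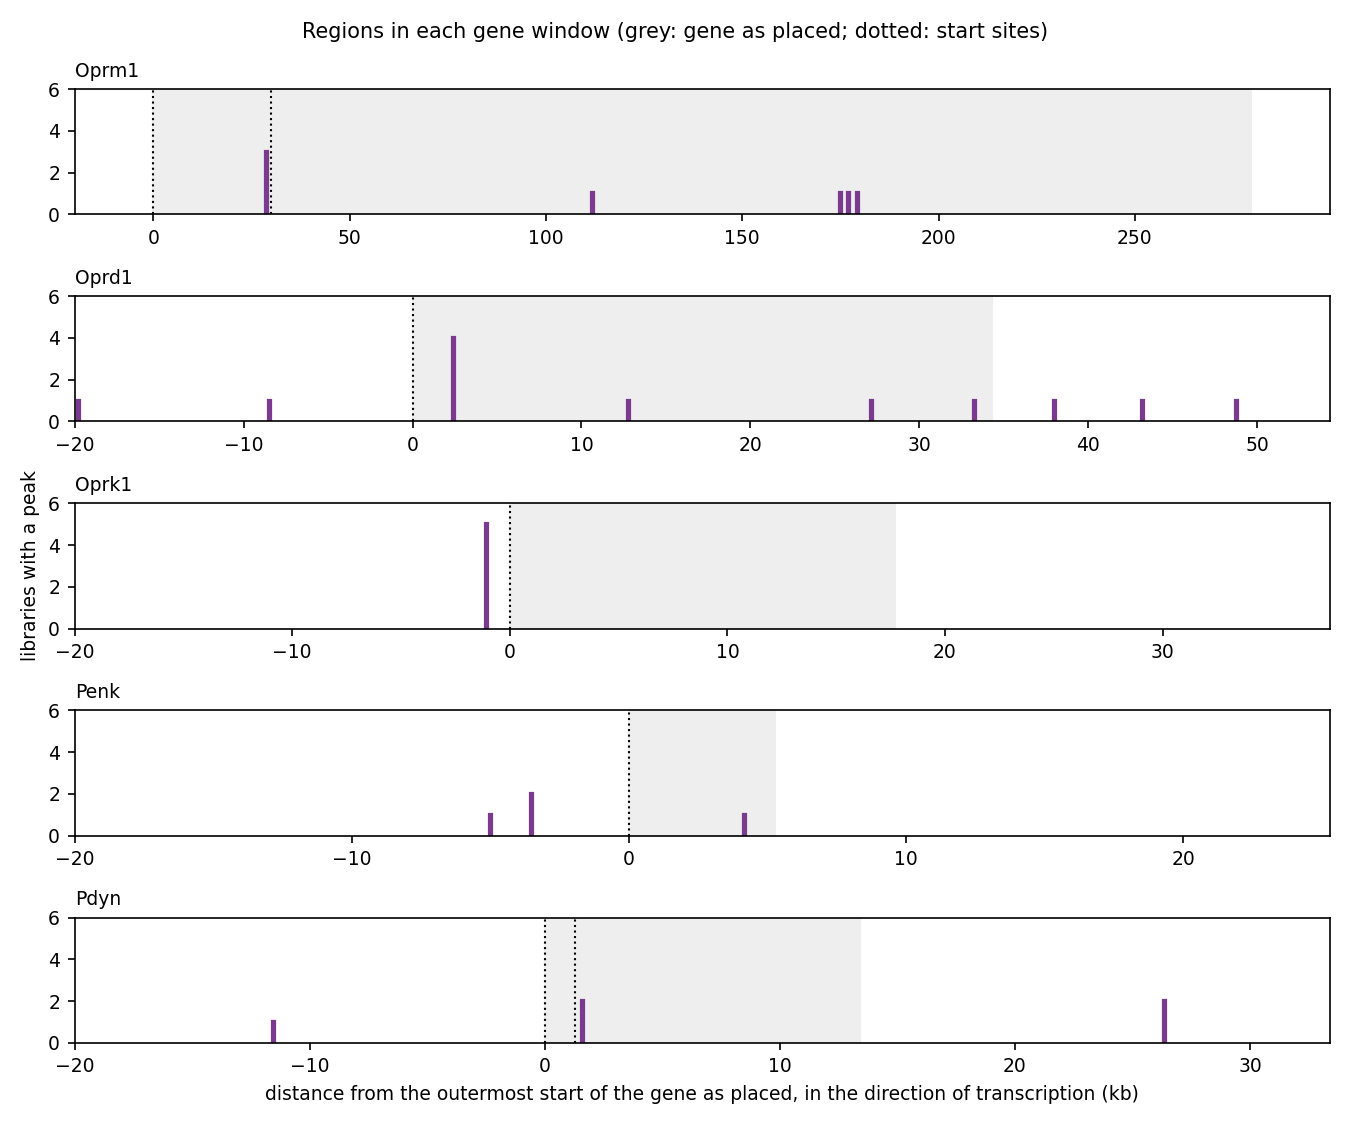
Position of the 21 regions in the 5 gene windows. The horizontal axis is the distance in kb from the outermost start of the gene as placed, in the direction of transcription, and the height of each line is the number of libraries with a peak. In every gene the tallest line, at 2 to 5 libraries, stands within 5 kb of a dotted start site, and for Pdyn a region 26.3 kb away is as tall.

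Penk, the enkephalin precursor, had its start region (chromosome 4, 4138523 to 4139089) in 2 libraries, at -3.53 kb from the placed start. The fold was 7.18 in standard-reared activated replicate 1 and 9.33 in stressed non-activated replicate 1. These peaks had 22 and 38 fragments at the summit, and 38 was the highest of all 34 peaks. At percentile 87.6 the peak of standard-reared activated replicate 1 ranked highest of all within its list, against 76.9 in stressed non-activated replicate 1. The other 8 libraries, which include all 3 stressed activated ones, had no peak in the Penk window. Stressed non-activated replicate 1 had another 2 peaks there, at percentiles of 35.2 and 29.1.

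Pdyn, the dynorphin precursor, had 2 regions that were shared by 2 libraries. The start region (chromosome 2, 129541561 to 129542069) was called in standard-reared activated replicate 1, with a fold of 3.89 and percentile 44.9, and in stressed non-activated replicate 1, with 6.34 and 55.4. The 2 starts in the RefSeq table are 1.28 kb apart and could not be told apart at this placement. Another region (129516907 to 129517237) lay 26.3 kb downstream of the outermost start, in the flank beyond the end of the placed gene. It was called in stressed activated replicate 2 with a fold of 5.33 and percentile 54.2, and in stressed non-activated replicate 1 with 8.99 and 75.1. It was the only region away from a start that a library outside the 2 longest lists shared. One more region, at -11.55 kb, was called in stressed non-activated replicate 1 alone, at percentile 9.60.

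**Figure D3:**
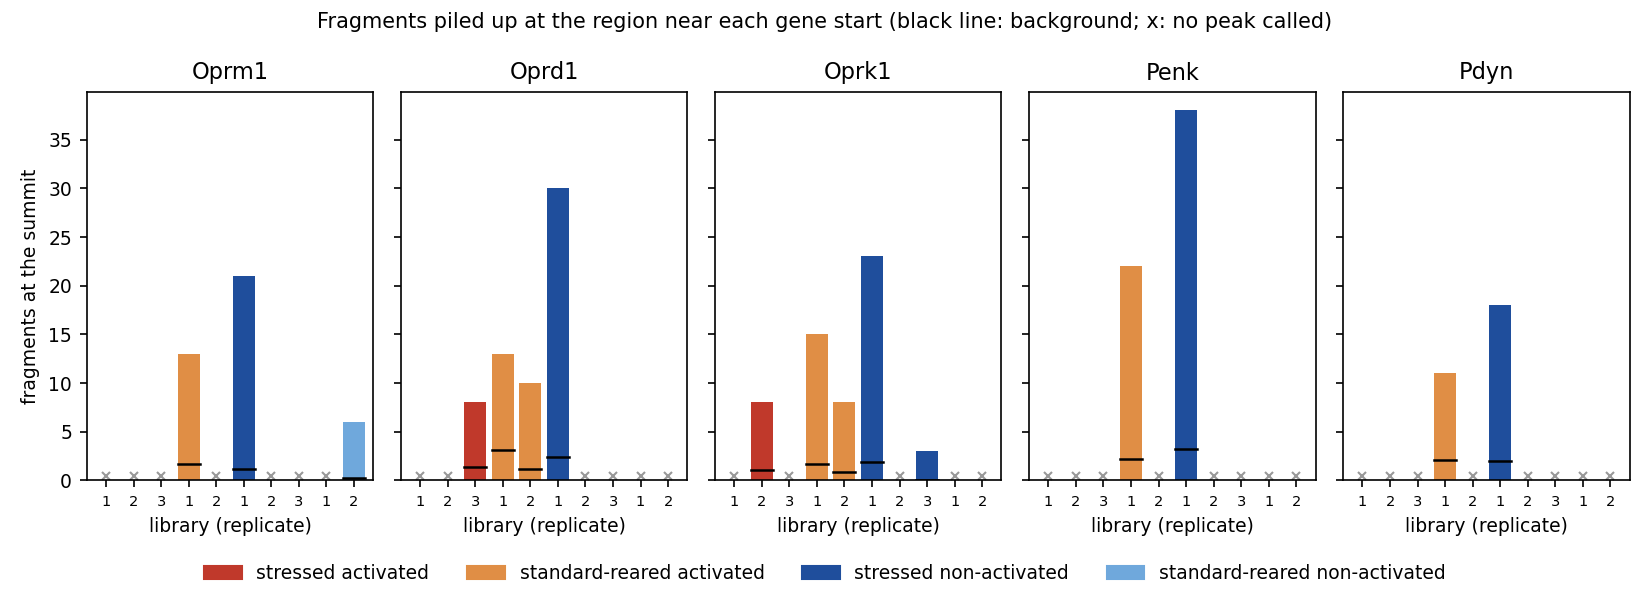
Fragments at the summit (bars, vertical axis) of the start region of each gene in the 10 libraries (horizontal axis, by group colour and replicate). Black lines are the background under each peak, and a cross marks a library with no peak called. Stressed non-activated replicate 1 has the tallest bar for each gene, from 18 for Pdyn to 38 for Penk.

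By library, the 5 windows held 0, 2 and 1 peaks in stressed activated replicates 1 to 3 and 11 and 2 in standard-reared activated replicates 1 and 2. They held 16, 0 and 1 in stressed non-activated replicates 1 to 3 and 0 and 1 in standard-reared non-activated replicates 1 and 2. The 2 longest lists thus gave 27 of the 34 peaks (79.4%), although they held 44.8% of the peaks of the series. Per 10000 peaks of the list, they had 2.76 (standard-reared activated replicate 1) and 3.15 (stressed non-activated replicate 1), against 0.0 to 1.16 in the other 8. Of the 7 peaks in those 8 libraries, 6 lay in a start region, which by definition 2 or more libraries had. The share of all peaks of the series near a start was not taken. Of the 4 animals with both classes, 3 had 0 opioid gene peaks in 1 of their libraries, so nothing could be shared there, and the other had 1 peak in each class, in different regions. The animal behind stressed replicate 1 had 0 peaks in activated and 16 in non-activated nuclei, with 16374 and 50786 peaks in the lists. Its activated library was nonetheless the deeper of the 2, at 10.1 against 6.52 fragments per kb.

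**Figure D4:**
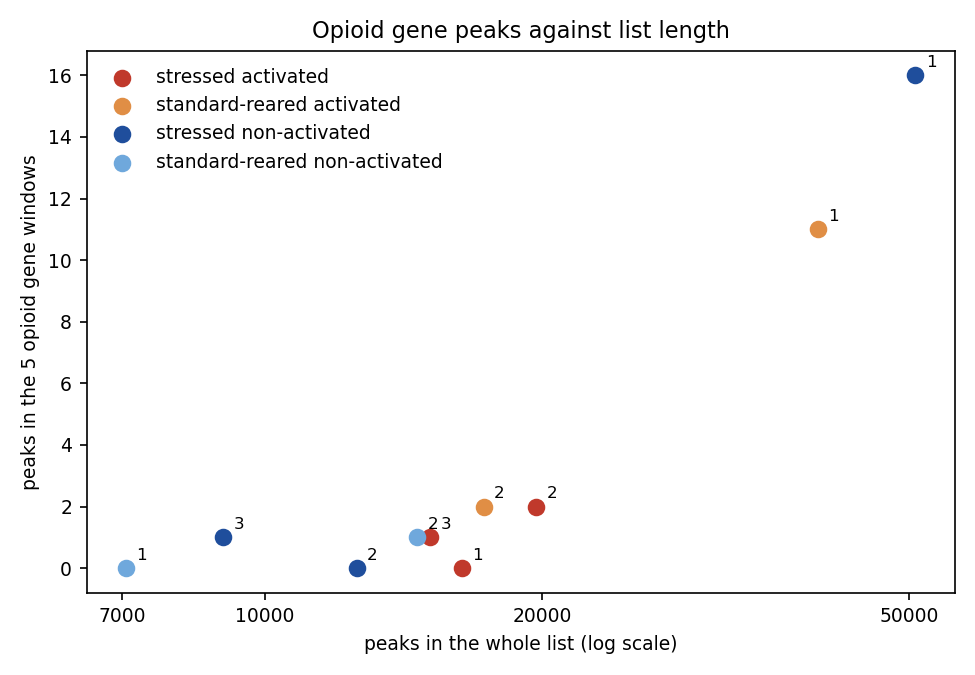
Number of peaks in the 5 opioid gene windows (vertical axis) against the number of peaks in the whole list (horizontal axis, log scale) for the 10 libraries, by group colour and replicate number. The 2 longest lists have 11 and 16 peaks, and the other 8 have 0 to 2.

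Opioid gene peaks were of middling to low strength within their lists. The 34 peaks had folds of 3.26 to 10.3 and percentiles of 3.73 to 87.6, with a median percentile of 39.97, and 13 lay above the median of their list. When each list was shortened to its 7076 peaks with the highest -log10 q, as many as the shortest one has, 0 of the 34 peaks were kept. Of all peaks 35.0% were, but only 17.8% in standard-reared activated replicate 1 and 13.9% in stressed non-activated replicate 1, which hold most of the 34. Weighted by where the 34 peaks came from, the share kept was 21.9%. None of the 6 regions found in 2 or more libraries reached 6 libraries, against 48.9% of the 25437 such regions in the series. The share found in 1 library was 15 of 21 (71.4%), against 65.9% of all regions. All 15 came from the 2 longest lists, 5 from standard-reared activated replicate 1 and 10 from stressed non-activated replicate 1.

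In stressed mice, whose activated cells are the subject of the series, no opioid gene region separated activated from non-activated nuclei. A region was counted as separating when every library of 1 group and no library of the other had a peak. Of the 6 regions found in 2 or more libraries, 0 separated them in either direction, against 0.173% of all regions for activated and 0.0708% for non-activated nuclei. Percentiles that did not overlap were found for 0 of the 6 too, against 1.18% of all regions with activated nuclei higher and 3.28% with activated nuclei lower. The shares over all regions hung on 1 library. Without stressed non-activated replicate 1 activated nuclei alone had a peak in 7.7% of all regions and non-activated ones in 0.218%, and the members still gave 0, of 4 that could be counted. Stressed activated libraries had a peak in the Oprk1 region in 1 of 3, in that of Oprd1 in 1 of 3 and in the Pdyn region away from the start in 1 of 3. For stressed non-activated libraries these counts were 2, 1 and 1 of 3. Oprm1, Penk and the Pdyn start had 0 of 3 stressed activated and 1 of 3 stressed non-activated libraries, in each case replicate 1. A two-sided exact permutation test on the percentile within the list, with 0 for a library without a peak and Benjamini-Hochberg adjustment over all 25437 regions, passed for 0 of the 6 (adjusted p = 1 for each). With 3 against 3 the smallest p is 0.1, so 0 of all regions reached an unadjusted 0.05.

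In standard-reared mice, the start regions of Oprk1 and Oprd1 were called in both activated libraries and neither non-activated one. This made 2 of 6 regions, and 10.9% of all regions showed the same pattern, against 0.169% for the reverse, which 0 of the 6 showed. By percentile, the same 2 regions were higher in both activated libraries, as were 34.4% of all regions, and 0 of the 6 were lower in both, against 2.94%. Counted by presence of a peak again, there was 1 region of 2 without both of the longest lists, against 14.2% of all regions. Without activated replicate 2 there were 4 of 6, against 36.1%. Without non-activated replicate 2 there were 2 of 6, against 31.6%. Each of these settings left a single library in 1 of the 2 groups. In lists of equal length no opioid gene region was left to count, and the shares over all regions were 5.49% for activated and 5.26% for non-activated nuclei. Oprk1 averaged percentile 58.6 ± 31.7 in activated and 0.0 in non-activated nuclei, and Oprd1 30.7 ± 13.8 and 0.0 (SD, n = 2 each). The exact permutation test gave p = 0.333 for both, the smallest that 2 against 2 allows, and an adjusted p = 0.892. Both activated libraries were deeper (10.9 and 5.30 fragments per kb) than both non-activated ones (1.45 and 1.133), so that depth and activation cannot be told apart here. Oprm1 had a peak in 1 of 2 libraries on each side, Penk and the Pdyn start in 1 of 2 activated libraries only.

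Pooled over rearing, activated and non-activated nuclei differed by less than the spread between libraries for every one of the 6 regions. In the Oprk1 region 3 of 5 activated libraries had a peak, with a mean percentile of 29.4 ± 33.3, and 2 of 5 non-activated ones, with 16.0 ± 31.5 (SD, n = 5 each; exact permutation p = 0.563, adjusted p = 1). Oprd1 had 3 of 5 and 1 of 5, with nearly equal means of 15.1 ± 16.8 and 15.3 ± 34.1 (exact permutation p = 1, adjusted p = 1). Oprm1 was at 15.0 ± 33.6 in activated and 22.4 ± 35.5 in non-activated nuclei (exact permutation p = 0.722, adjusted p = 1). Penk and both Pdyn regions had 1 of 5 libraries on each side. None of the 6 separated the classes, against 0.0275% and 0.0% of all regions for activated and non-activated nuclei. Percentiles were apart in 0 of the 6, against 0.393% of all regions with activated nuclei higher and 0.629% with them lower. Without stressed non-activated replicate 1, 1.57% of all regions had a peak in activated nuclei alone, against 0 of the 4 members left. At an unadjusted p under 0.05, 0 of the 6 and 7.04% of all regions passed, and none of all regions passed after adjustment. Libraries were treated as independent, although 4 animals gave 2 each.

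Rearing was compared within each class. In activated nuclei, the percentiles of the Oprk1 and Oprd1 start regions did not overlap between the groups. Oprk1 was at 0.0, 29.8 and 0.0 in the stressed and at 80.9 and 36.2 in the standard-reared libraries, and Oprd1 at 0.0, 0.0 and 14.1 against 20.9 and 40.4. The fold at Oprd1 did overlap, at 3.88 in stressed replicate 3 against 3.39 and 5.18 in standard-reared replicates 1 and 2. The Oprk1 peaks of stressed replicate 2 and standard-reared replicate 2 lay in the same region but did not overlap each other. Lower percentiles in every stressed library were found in these 2 of 6 regions and in 17.9% of all regions, and higher percentiles in 0 of 6 and 1.73%. The difference was -48.6 for Oprk1 (exact permutation p = 0.2) and -26.0 for Oprd1 (p = 0.1, the smallest that 3 against 2 allows), with an adjusted p = 0.74 for both. Without standard-reared activated replicate 1, the longer list, each gene rested on a single standard-reared library. No region separated these groups by presence, against 0.366% of all regions for stressed and 3.81% for standard-reared nuclei. Without standard-reared replicate 2, the longer list of replicate 1 was the only standard-reared library left. In that setting 3 of 6 had a peak in standard-reared nuclei alone, against 20.4% of all regions. There was 1 of 5 without stressed replicate 2, against 7.53%, and 1 of 6 without stressed replicate 3, against 4.72%.

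In non-activated nuclei, stressed mice had a peak in all 6 regions and standard-reared mice only in that of Oprm1. All 6 had a peak in stressed replicate 1, and the only peak of another stressed library was that of replicate 3 in the Oprk1 region. None separated the groups, against 0.358% of all regions for stressed and 0.0315% for standard-reared nuclei. Without stressed replicate 2 there was 1 of 6 on the stressed side, against 1.34% of all regions. The shares over all regions were 0.643% for stressed and 1.2% for standard-reared nuclei without stressed replicate 1, which turns their order round. Without standard-reared replicate 2 they were 6.49% and 0.128%, and without standard-reared replicate 1 they were 0.405% and 1.22%. Percentiles were apart in 0 of the 6, against 3.73% of all regions with stressed nuclei higher and 0.609% with them lower. The largest difference was that of Oprk1, at 26.6 ± 39.5 in stressed (n = 3) and 0.0 in standard-reared nuclei (n = 2; exact permutation p = 0.7, adjusted p = 1). Stressed replicate 1 was also the only deep library among the 5 and had the shortest fragments (150 bp). The part of depth and of fragment length in this was not tested.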

How the data were processed

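The 10 libraries have 1 peak list each. The submitters' processing notes name MACS2 2.2.9.1, Bowtie2 2.4.5, fastp 0.23.4, R 4.4.2 and SAMtools 1.13, and the build mm39. Read shift, filters and calling settings were not given in the sources used here. In the deposited lists, the authors' fold is a linear ratio at the summit, p and q are -log10 values, the score is 10 times the -log10 q, and the summit offset is in bp. Peaks repeated for several summits were counted once, on chromosomes 1 to 19, X and Y. Positions are 1-based.

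No mm39 annotation was at hand. Each lower gene bound was taken from the stated position of the gene, rounded to 10 kb, and the length and start distances from RefSeq tables of GRCm38.p6. Windows are therefore uncertain by about 5 kb. The strand came from the promoter table for Oprm1, Oprd1 and Pdyn and from general knowledge for Oprk1 and Penk. Promoter windows matched 4 of the 6 genes. Other opioid system genes planned for description, and marker genes, were not placed.

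Fragments at the summit and background were solved from fold and p (whole for 100% of peaks in each library, to a relative misfit of 1e-05). Background over fragment length gave the depth. Percentiles are ranks of the fold within 1 list. Peaks of all libraries overlapping by 1 bp were merged, and regions in 2 or more libraries were tested by exact permutation over libraries, adjusted over all of them. In a shallow list, open chromatin may have no peak. Library names show that replicate numbers pair animals in stressed mice only. Genes, lists and tests were chosen with earlier results of these data known. The naming rule took all placed genes, the region near each start and up to 3 further regions by mean percentile. It asked for 1 kb from a start, which the placement does not allow, so 5 kb was used. Further regions beyond the rule were named after their values were seen. The permutation test, the solving of fragments and the merging were tested on simulated data. The work used SciPy 1.17.1, pandas 2.3.3, NumPy 2.4.6, Matplotlib 3.10.9 and Python 3.11.15.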

Additional observations from a re-analysis of the deposited data

Results flagged for a closer look

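Standard-reared activated replicate 1 had 11 peaks in the opioid gene windows, far above the 0 to 2 of the other 4 activated libraries. Stressed non-activated replicate 1 had 16, far above the 0 or 1 of the other 4 non-activated libraries. Both have the longest list of their class. Per 10000 peaks of the list neither stood as far apart. In all 4 groups of values were searched, and chance marks about 1 in 20.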

How the results depend on the processing

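The number of opioid gene peaks was 34. It was 16 at a -log10 q of at least 5, 0 in lists of equal length, 17 without flanks and 7 without both of the longest lists (an alternative added after seeing the data). Leaving out each library in turn gave 18 to 34, with 18 without stressed non-activated replicate 1. Flanks of 50 kb gave 47, every summit entry 36, and windows 5 kb lower or higher, also added later, 33 and 36.

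In standard-reared mice, there were 2 regions of activated nuclei. At a -log10 q of at least 5 there were 0 of 4 left, against 1591 of all 15845. Lists of equal length gave 0, but held no opioid gene region, so that nothing could be called. There was 1 of 3 without flanks (10.9% of all regions) and 1 of 2 without both of the longest lists. Leaving out each library gave 2 to 4, with 4 without activated replicate 2, which left 1 activated library. For rearing in activated nuclei the count of 0 ranged from 0 to 3, all on the standard-reared side. The count was 3 without standard-reared replicate 2, which left 1 library in that group, and 1 without stressed replicate 2 or 3. In non-activated nuclei it ranged from 0 to 1, with 1 on the stressed side without stressed replicate 2. The other 2 comparisons gave 0 under every alternative run. The permutation test called 0 members throughout, which says nothing of stability, since in 4 of the 5 comparisons no p could pass. This holds for the fits with a replicate block as well, by animal in stressed mice (smallest p 0.25) and by number in standard-reared mice (smallest p 0.5). Both fits called 0. The blocks by number joined libraries of different animals, since activated replicate 2 and non-activated replicate 1 came from the same standard-reared animal. The causes of these changes were not tested.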
